A study of Mus musculus with 5 samples.

Results

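The 10 genes described here belong to the p53 pathway and the apoptosis machinery: the regulators Trp53 and Mdm2, the p53 targets Cdkn1a and Ccng1, the pro-apoptotic genes Bbc3, Bax and Bcl2l11, and the anti-apoptotic genes Bcl2, Bcl2l1 and Mcl1. They were followed through eCLIP peak lists for a pair of proteins. PABPC1 binds the poly(A) tails of mRNAs in the cytoplasm, and CCT3 belongs to the ring of TRiC/CCT, a chaperonin that folds proteins. Members were the rows of the lists whose gene name is 1 of the 10, which gave 60 of 43658 peaks and 6 of the 10 genes. In eCLIP, fragmented RNA is pulled down with the protein it is crosslinked to, turned into a library and read against input RNA that skipped the pull-down. All libraries were labelled GC-2spd(ts), a mouse line given as spermatocyte cells, and the labels give no treatment, temperature or time. The 5 samples were 1 PABPC1 immunoprecipitation with 1 input, and 2 CCT3 immunoprecipitation samples with 1 input. The 2 CCT3 samples were titled CCT3 and CCT3-2, under the same library name. Whether they come from 1 library or from 2 is not known here. As background, this line was immortalised with SV40 large T antigen and a temperature-sensitive p53, so transcripts of the endogenous and of the introduced p53 gene cannot be told apart in a peak list.

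The p53 protein is a transcription factor that is kept low by Mdm2, a ubiquitin ligase whose own gene p53 activates. Stabilised p53 raises cell cycle inhibitors such as Cdkn1a and death genes such as Bax and Bbc3 (PUMA). Apoptosis through mitochondria is set by the BCL2 family: Bcl2, Bcl2l1 (BCL-XL) and Mcl1 hold Bax in check, and the BH3-only proteins Bbc3 and Bcl2l11 (BIM) oppose them. In the testis this balance governs the removal of germ cells. Large T antigen binds p53, and PABPC1 takes part in translation and mRNA stability.

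The lists held 14092 PABPC1, 10916 CCT3 and 18650 CCT3-2 peaks, each with the authors' log2 fold, taken as immunoprecipitation over input, and the authors' −log10 p, which stops at 400. No read totals were used, which leaves the depth behind each peak unknown, and lack of a peak does not show lack of binding. PABPC1 has 1 list and both CCT3 lists carry 1 library name, so no difference between proteins has a replicate check and no test across samples was made. Peaks lay inside 11 of 12 spermatocyte and 8 of 8 fibroblast marker genes in PABPC1, and inside 0 of 12 and 0 of 8 in both CCT3 and CCT3-2. PABPC1 peaks also lay inside 6 of 6 spermatid, 5 of 7 Sertoli and 4 of 6 Leydig marker genes. For both CCT3 and CCT3-2 these counts were 0 of 6, 1 of 7 and 0 of 6. PABPC1 peaks thus lay in marker genes of cell types other than the labelled one. The Leydig gene Insl3 held 22 and the Sertoli gene Clu 11, and both genes reached the −log10 p limit of 400. Whether the PABPC1 and CCT3 libraries hold the labelled cells, or like material, was not tested. Over all protein-coding genes, peaks lay inside 25.8% in PABPC1, 9.59% in CCT3 and 12.3% in CCT3-2. What part such differences play in the values below was not tested.

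PABPC1 peaks were named for 4 of the 10 genes (Trp53, Mdm2, Bbc3 and Mcl1), beside 22.5% of 21900 protein-coding genes named in that list. CCT3 and CCT3-2 peaks were named for the same 3 of 10 (Mdm2, Bcl2l11 and Bcl2), beside 9.15% and 12.0% of protein-coding genes. The tables name each peak after the closest transcription start, which did not always belong to the gene holding the peak. By position inside the RefSeq gene span, PABPC1 peaks lay in 5 genes (Trp53, Mdm2, Bax, Bcl2l1 and Mcl1), beside 25.8% of protein-coding genes. By position CCT3 and CCT3-2 peaks lay in the same 3 genes as by name, beside 9.59% and 12.3%. Of the 10 genes, Mdm2 was the only 1 with peaks of both proteins. Neither its CCT3 peak nor its CCT3-2 peak passed a stricter threshold (log2 fold of 4, −log10 p of 5). Cdkn1a and Ccng1 had no peak in any list by either rule.

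**Figure D1:**
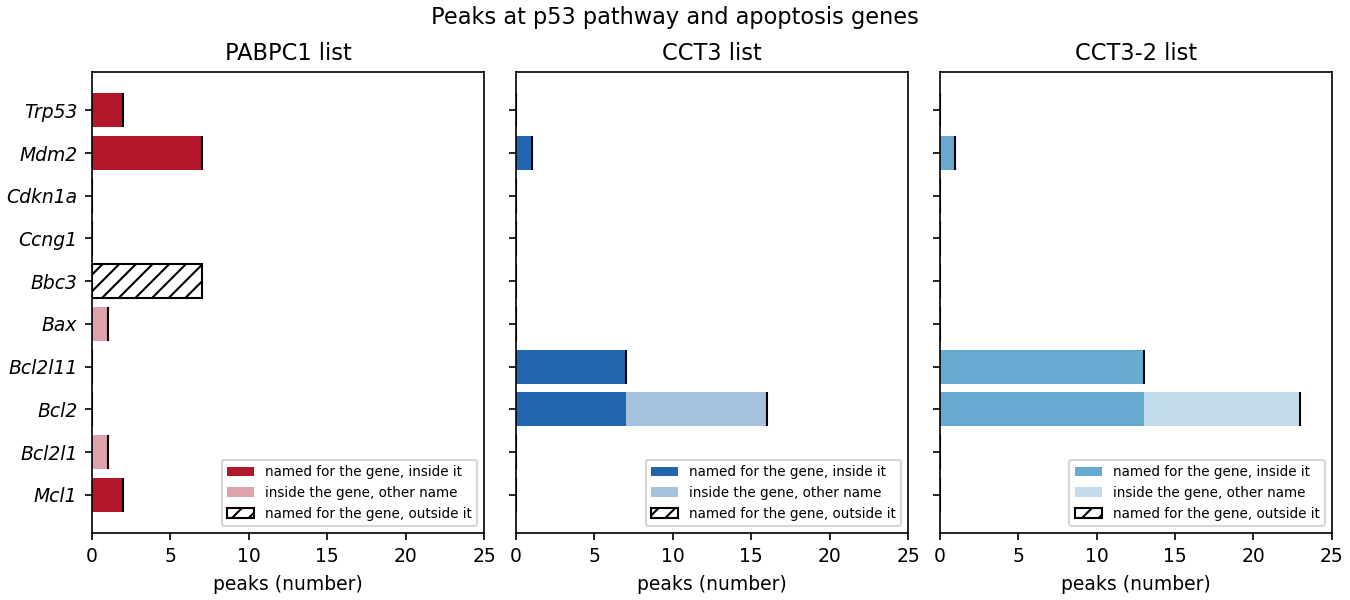
Number of peaks (x axis) at each of the 10 genes in the PABPC1, CCT3 and CCT3-2 lists; solid bars are peaks named for the gene and inside its RefSeq span, pale bars are peaks inside it under another gene's name, and hatched bars are peaks named for it that lie outside. Bcl2 holds 16 CCT3 and 23 CCT3-2 peaks, and the 7 PABPC1 peaks named Bbc3 all lie outside Bbc3.

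Trp53, which encodes p53, carried 2 PABPC1 peaks and no CCT3 or CCT3-2 peak. The gene (ID 22059) lies at chr11:69580348-69591873 on the plus strand of mm10, and both peaks were in its 3′ UTR. The stronger, at chr11:69591436-69591502, reached a log2 fold of 5.77 with a −log10 p of 16.4. A higher fold was listed for 9.99% of PABPC1 peaks. The other, at chr11:69591778-69591810, was near the foot of the list, at a log2 fold of 3.32 with a −log10 p of 3.19. Its midpoint lay 79 bases from the 3′ end of the gene, against 404 bases for the stronger peak. The nearest CCT3 peak was 174160 bases away.

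Mdm2 held 7 PABPC1 peaks inside its span, more than any other of the 10 genes. The gene (ID 17246) lies at chr10:117688875-117710758 on the minus strand, and all 7 peaks were in the 3′ UTR on that strand, spread over 1116 bases. More peaks were found in 227 of the 5645 protein-coding genes with a PABPC1 peak. The highest, at chr10:117688907-117688974, reached a log2 fold of 8.26 with a −log10 p of 56.4, and a higher fold was listed for 0.532% of PABPC1 peaks. It was the Mdm2 peak closest to the 3′ end, with its midpoint 65 bases from it. From there inward the log2 folds were 3.10 at 149 bases, 3.61 at 206, 3.81 at 502, 4.09 at 872, 5.42 at 948 and 5.99 at 1114. The strong sites were at both ends of the covered stretch, with lower folds between them. Mdm2 also held a single CCT3 peak at chr10:117690546-117690584, near the foot of that list, at a log2 fold of 3.36 with a −log10 p of 3.35. It was 523 bases upstream of the nearest PABPC1 peak, and the CCT3 table classed it as 3′ UTR. The CCT3-2 peak at chr10:117690584-117690670 had a log2 fold of 3.98 and met the CCT3 peak in 1 base. Its class was promoter, and the table lists it with a short Mdm2 transcript that starts nearby.

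The targets Cdkn1a, the p21 inhibitor of cyclin-dependent kinases, and Ccng1, the cyclin G1 gene, had no peak. Their spans are 9744 bases (chr17:29090979-29100722) and 6758 bases (chr11:40748552-40755309). PABPC1 peaks did lie on the miR-34 genes, microRNAs known as direct p53 targets that repress cell cycle and BCL2 family mRNAs. This set was looked up after the Mir34 peaks were seen. Of 9 p53-linked microRNA genes with a RefSeq sequence, Mir34a, Mir34b and Mir34c held PABPC1 peaks, beside 3.01% of 1228 microRNA genes, and none of the 9 held a CCT3 or CCT3-2 peak, beside 0.407% and 0.814%. The mature strands found in RefSeq for the 5′ arm share the seed, bases 2 to 8, shown in capitals.
mmu-miR-34a-5p: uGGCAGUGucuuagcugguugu
mmu-miR-34b-5p: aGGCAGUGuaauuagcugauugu

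The hairpins are printed from RefSeq (GRCm38.p6, 5′ to 3′) to show where the peaks fell, with the bases under a PABPC1 peak in capitals.
Mir34a: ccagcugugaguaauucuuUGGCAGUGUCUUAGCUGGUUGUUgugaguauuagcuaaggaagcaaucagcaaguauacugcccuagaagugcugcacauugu
Mir34b: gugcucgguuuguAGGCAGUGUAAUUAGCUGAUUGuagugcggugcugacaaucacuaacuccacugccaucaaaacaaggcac
Mir34c: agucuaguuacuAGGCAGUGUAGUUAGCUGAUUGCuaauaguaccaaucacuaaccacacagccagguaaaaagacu

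In each hairpin the peak bases numbered 22 or 23, lay on the hairpin's strand and held the seed GGCAGUG. Mir34c (chr9:51103034-51103110) had the highest log2 fold, 6.97, with a −log10 p of 16.8. Mir34a (chr4:150068454-150068555) had 5.76 and Mir34b (chr9:51103562-51103645) 4.86. The 23 bases in Mir34a and in Mir34c were each listed as 2 touching peaks with the same fold.

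Bbc3, the gene of the BH3-only protein PUMA, was named for 7 PABPC1 peaks, none of which lay in it. The gene (ID 170770) spans chr7:16308398-16318334 on the plus strand. The 7 peaks lay at chr7:16327075-16327519 on the minus strand, starting 8740 bases beyond its end and inside the span of Sae1 (chr7:16320236-16387896), which encodes a subunit of the SUMO-activating enzyme. Their log2 folds ran from 3.67 to 5.51, and 1 peak reached the −log10 p limit of 400. All were classed as 3′ UTR. Sae1 itself was not named for any PABPC1 peak. By position Bbc3 had no peak in any list, so these 7 peaks are counted as named for Bbc3 and not as peaks on its transcript.

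Bax, which encodes the pore-forming effector of mitochondrial apoptosis, showed the reverse. No peak was named for it, but 1 PABPC1 peak named for the neighbouring ferritin gene Ftl1 lay inside it. This peak was in the Bax 3′ UTR at chr7:45461722-45461776, on the minus strand of the gene (ID 12028, chr7:45461695-45466903). Its log2 fold was 6.25 and its −log10 p 85.1, the highest −log10 p of any PABPC1 peak inside the 10 genes. Its midpoint lay 54 bases from the 3′ end. No other RefSeq gene overlaps that position, and no CCT3 or CCT3-2 peak lay in Bax.

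Bcl2l11, the gene of the BH3-only protein BIM, was reached by CCT3 peaks inside an intron and by no PABPC1 peak. The gene (ID 12125) lies at chr2:128126038-128162547 on the plus strand. All 7 CCT3 peaks were in intron 2 of 4 of the listed transcript, within 775 bases (chr2:128134667-128135441), of which they covered 56.9%. In order along the gene their log2 folds were 4.68, 4.53, 4.55, 4.76, 3.40, 5.67 and 4.76. The sixth of these, at chr2:128135182-128135251, was the highest CCT3 fold at the 10 genes, and 4.36% of CCT3 peaks had a higher one. The median was 4.68, beside 4.05 over all CCT3 peaks. The −log10 p values ran from 3.97 to 11.95, and 4 of the 7 peaks passed a stricter threshold (log2 fold of 4, −log10 p of 5).

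The CCT3-2 list had 13 peaks in Bcl2l11, all on its strand. Of these, 10 lay in the same intronic stretch (chr2:128134483-128135445), with log2 folds of 3.70 to 5.59 and a median of 4.64. The other 3 lay further upstream at chr2:128131061-128131751, 1 classed as 3′ UTR and 2 as intron, with log2 folds of 3.03 to 3.74. They had no counterpart in the CCT3 list. All 7 CCT3 peaks overlapped a CCT3-2 peak, and the overlapping pairs differed by a median of −0.10 in log2 fold (CCT3-2 minus CCT3, range −0.49 to 0.66). The share of all CCT3 peaks that overlap a CCT3-2 peak is not given here, so this overlap is not shown to be particular to Bcl2l11.

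**Figure D2:**
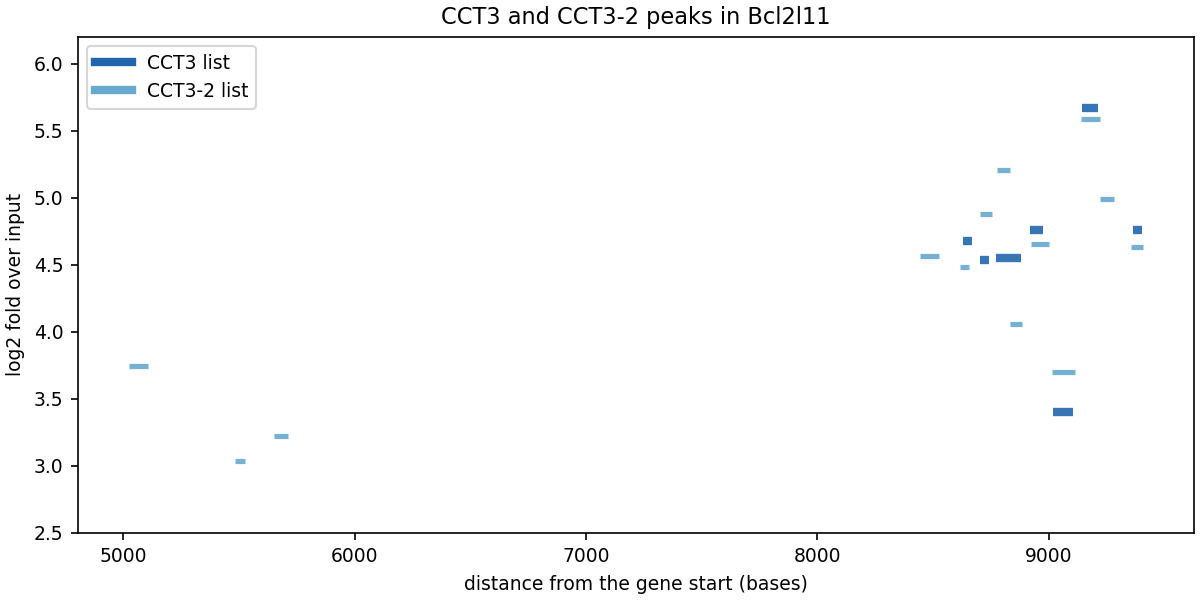
Peaks in Bcl2l11 by distance from the gene start (x axis, bases) and authors' log2 fold (y axis); each bar spans a peak's width, dark for CCT3 and light for CCT3-2. Both lists crowd between 8484 and 9383 bases from the start, and CCT3-2 alone has 3 peaks between 5065 and 5683 bases.

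Bcl2, the founding anti-apoptotic gene of its family, held the most peaks of the 10 genes. The gene (ID 12043) spans 176115 bases at chr1:106538176-106714290 on the minus strand. The CCT3 list named 7 peaks for it, and 16 lay inside it. More peaks were found in 142 of the 2101 protein-coding genes with a CCT3 peak. The 9 others were named for Mir3473f, a microRNA gene in the Bcl2 span, but the nearest of them was 3337 bases from its hairpin. No PABPC1 peak was named for Bcl2 or lay in it.

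The Bcl2 peaks stood at its ends. The 7 named peaks formed a 5′ group at chr1:106712360-106714160, 167 to 1890 bases from the gene start. The CCT3 table classed 5 of them as 5′ UTR and 2 as exon 1 of 2. From the start inward their log2 folds were 3.32, 4.96, 4.19, 4.22, 3.47, 3.43 and 4.67, with −log10 p values of 8.38 to 17.5. The second of these, at chr1:106713957-106714067, had the highest fold in the gene. The other 9 formed a 3′ group at chr1:106538638-106543158, all classed as 3′ UTR, with log2 folds of 3.07 to 4.50 and −log10 p values of 3.33 to 8.60. Between the groups 169201 bases, or 96.1% of the span, held no CCT3 peak. Over the whole CCT3 list, 29.6% of peaks were intronic, whereas none in Bcl2 was and all in Bcl2l11 were.

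The CCT3-2 list repeated both Bcl2 groups, with 13 peaks at the 5′ end and 10 at the 3′ end, all on the strand of the gene. Their log2 folds were 2.87 to 4.72 and 2.84 to 4.48. The 5′ peaks were all classed as promoter in this table although 7 CCT3 peaks at the same place were 5′ UTR or exon, so the class there depends on the table. Of the 16 CCT3 peaks, 15 overlapped a CCT3-2 peak, again without a share over all CCT3 peaks to set beside it. The 18 overlapping pairs differed by a median of −0.06 in log2 fold, with a range of −1.11 to 0.50. Across the groups CCT3-2 likewise left a gap of 169196 bases. The lists share a library name, so this likeness is not a replicate check.

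**Figure D3:**
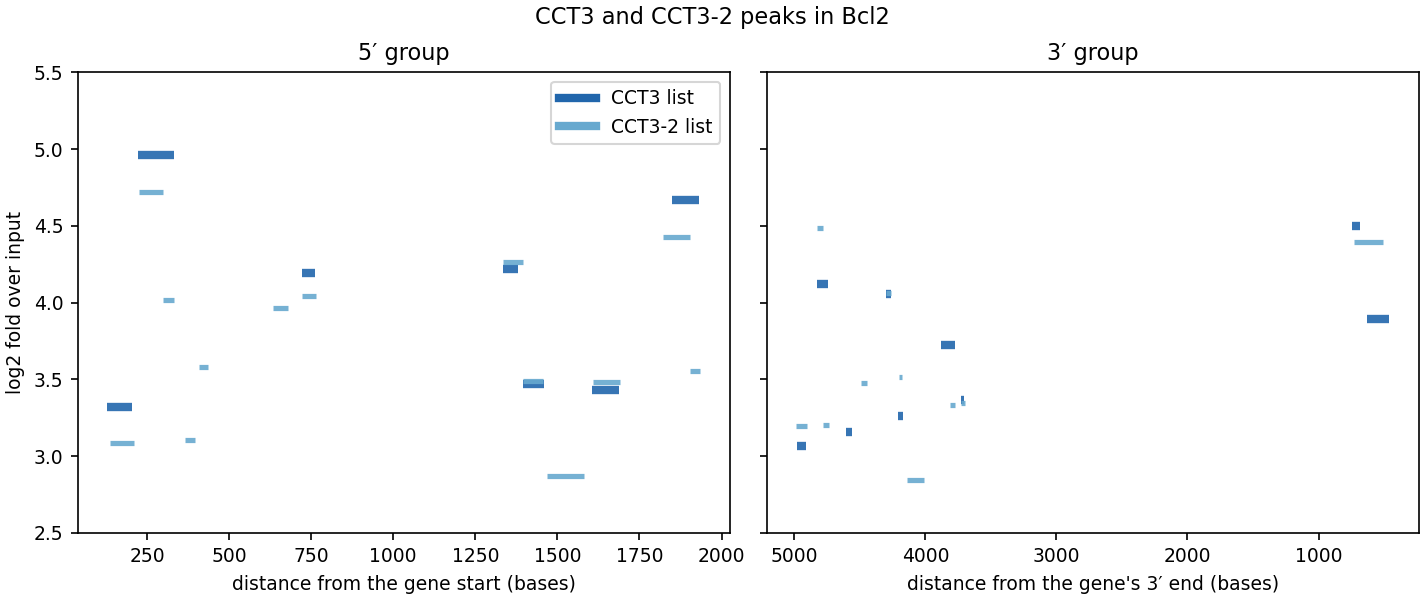
Peaks in Bcl2 by authors' log2 fold (y axis) against distance in bases from the gene start (left panel) or from its 3′ end (right panel, reversed so that the end is on the right); bars span peak widths, dark for CCT3 and light for CCT3-2. The highest peak, at 4.96, lies 278 bases from the start, and 7 of the 9 CCT3 peaks of the 3′ group lie 3718 to 4945 bases from the end.

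Bcl2l1, the BCL-XL gene, had a single peak, from PABPC1 and named for Cox4i2. It lay in the 3′ UTR at chr2:152780690-152780719 on the minus strand of the gene (ID 12048, chr2:152758732-152833803), at a log2 fold of 3.91 with a −log10 p of 6.24. The RefSeq span runs on for 21972 bases past it, so its distance to a transcript end is not known here. Mcl1, an anti-apoptotic gene whose product turns over quickly, had 2 PABPC1 peaks in its 3′ UTR. They lay at chr3:95662005-95662060 and chr3:95662612-95662654 on the plus strand of the gene (ID 17210, chr3:95656944-95663179). Their log2 folds were 3.70 and 3.62, both below the PABPC1 median of 4.19. Neither gene had a CCT3 or CCT3-2 peak.

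The PABPC1 peaks of the 10 genes were alike in class and strand but not in strength. All 13 inside the genes were in 3′ UTRs (95% Wilson interval 77.2 to 100%), beside 79.9% of all PABPC1 peaks, and all were on the gene's own strand. Intervals cover counting error only, and peaks of 1 gene are not independent. The highest fold in each gene ordered as Mdm2 at 8.26, Bax at 6.25, Trp53 at 5.77, Bcl2l1 at 3.91 and Mcl1 at 3.70. These are 1 value per gene without replicates, so no neighbours in that order are shown to differ. The median distance to the 3′ end was 502 bases over the 13 peaks, beside 490 bases over 6029 PABPC1 3′ UTR peaks inside the gene they name. Within 100 bases of the end lay 3 of the 13, beside 17.6% of the 6029. The 13 include the Bax and Bcl2l1 peaks, which carry other genes' names, a kind left out of the 6029. The Bcl2l1 distance runs to the end of the RefSeq span, not to a known transcript end.

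**Figure D4:**
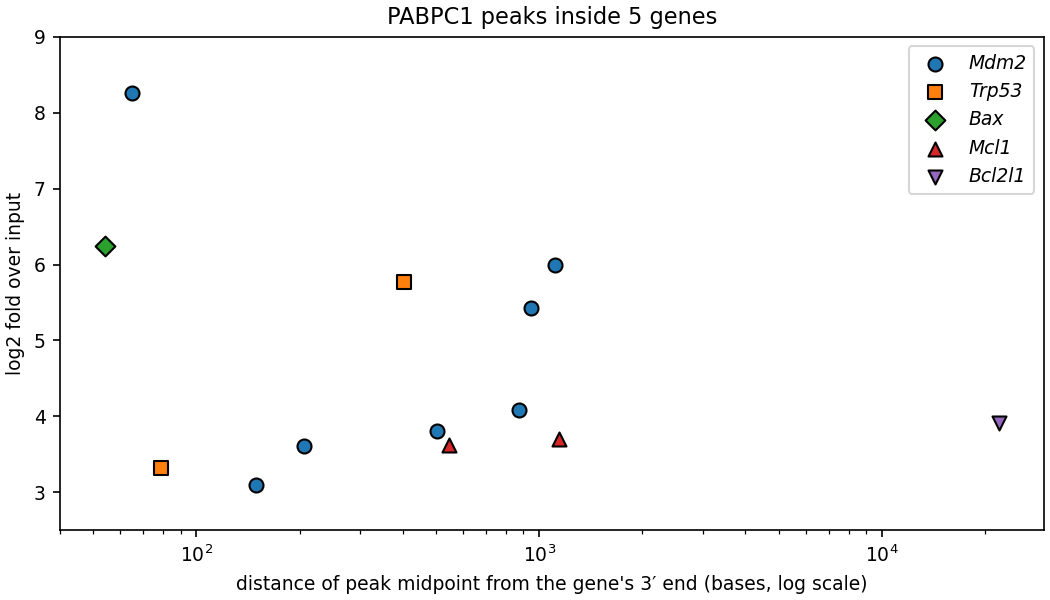
The 13 PABPC1 peaks inside Mdm2, Trp53, Bax, Mcl1 and Bcl2l1, by distance of the midpoint from the gene's 3′ end (x axis, bases, log scale) and authors' log2 fold (y axis). The peaks nearest the end in Bax (6.25) and Mdm2 (8.26) are high, whereas the Trp53 peak nearest the end is at 3.32.

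The CCT3 peaks inside the 10 genes took more classes, with 10 of 24 in 3′ UTRs (41.7%, 24.5 to 61.2%), 7 in introns, 5 in 5′ UTRs and 2 in other exons. Over all CCT3 peaks these shares were 18.0%, 29.6%, 3.15% and 47.9%. The intronic peaks were all in Bcl2l11, and the 5′ UTR and exon peaks all in Bcl2, so the shares describe few genes. The member CCT3 peaks in 3′ UTRs lay a median of 4010.5 bases from the gene's end, and none was within 100 bases. The median was 3244 bases over 1135 CCT3 3′ UTR peaks inside the gene they name. The sets are unlike, because 9 of the 10 are Bcl2 peaks named for Mir3473f, a kind left out of the 1135. The member median therefore rests almost wholly on Bcl2. The log2 folds of the 24 CCT3 peaks had a median of 4.09, beside 4.05 over all CCT3 peaks. For the 13 PABPC1 peaks the median was 3.91, beside 4.19. No PABPC1 peak inside the 10 genes overlapped or lay within 100 bases of a CCT3 peak. Over all PABPC1 peaks, 0.582% overlapped one and 0.887% lay within 100 bases of one, so none among 13 is near the background.

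**Figure D5:**
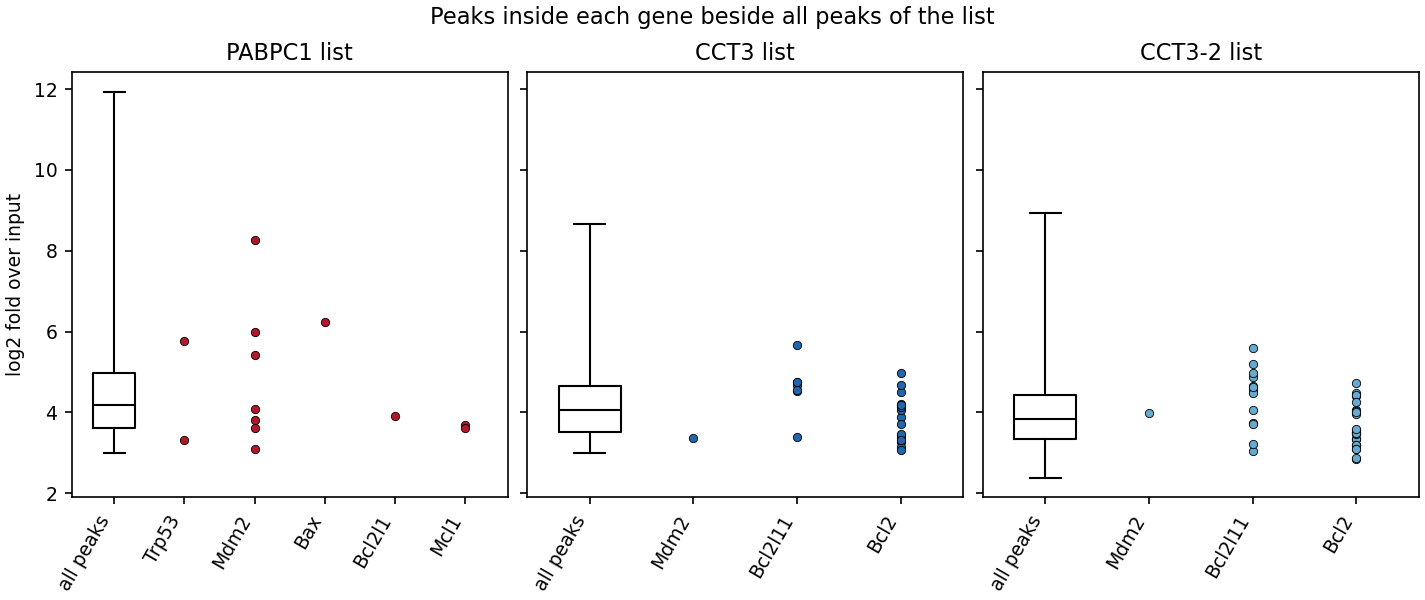
Authors' log2 fold over input (y axis) of each peak inside the named genes (points) beside all peaks of the PABPC1, CCT3 and CCT3-2 lists (boxes show quartiles and median, whiskers the whole range). The members lie within the range of each list, whose medians are 4.19, 4.05 and 3.83, and none has the highest fold of its list.

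Among 144 genes of wider p53 and apoptosis lists, which include the 10, PABPC1 peaks were named for 48 (33.3%), CCT3 peaks for 25 (17.4%) and CCT3-2 peaks for 34 (23.6%). Over all protein-coding genes these shares were 22.5%, 9.15% and 12.0%. By position the counts were 55 (38.2%), 26 (18.1%) and 33 (22.9%), beside 25.8%, 9.59% and 12.3%. The median of the highest fold per gene was 4.61 in PABPC1 and 4.38 in CCT3, beside 4.69 and 4.42 over all protein-coding genes with a peak. The lists were chosen with earlier results of these data known, so the shares are a description only.

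Of 41 p53 regulators, 18 were named for a PABPC1 peak, 8 for a CCT3 peak and 13 for a CCT3-2 peak. These are 43.9%, 19.5% and 31.7%, beside the background of 22.5%, 9.15% and 12.0%. Kmt5a, a methyltransferase that modifies p53, had 6 PABPC1 peaks in its 3′ UTR, the highest at a log2 fold of 9.23, above the 8.26 of Mdm2. Brd7, a p53 cofactor, reached 7.03, and Cdkn2a, whose Arf product inhibits Mdm2, reached 6.01. Trp53bp2, a p53-binding protein, had 1 peak at 5.06. These genes were taken by listed name. By position, peaks listed under other names reached 6.39 in Trp53bp1, where the span of Tubgcp4 overlaps, and 5.34 in Sirt1, a p53 deacetylase. In CCT3, Crebbp, an acetyltransferase for p53, had 6 intronic peaks up to 4.94 and 15 CCT3-2 peaks. The p53 kinase genes Hipk2 and Dyrk2 reached 4.79 and 4.50, and by position Cop1, a ubiquitin ligase for p53, held 3 CCT3 peaks of other names up to 4.94. The CCT3 peaks named Rpl5, up to 3.82, lay outside that gene.

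Of 52 p53 targets, 17 were named in PABPC1 (32.7%), 8 in CCT3 (15.4%) and 11 in CCT3-2 (21.2%), beside 22.5%, 9.15% and 12.0% of all protein-coding genes. Among peaks named for further targets and inside them, PABPC1 folds were highest in Ckap2 at 7.01, Gpx1, a glutathione peroxidase, at 6.10, and Ptp4a3, a phosphatase, at 5.11. By position, 3 PABPC1 peaks in Ppm1d listed as Bcas3 reached 5.58. The 5 peaks named Phlda3, up to 5.27, lay outside it. By listed name CCT3 folds were highest in Polk, a translesion DNA polymerase, with 8 peaks up to 5.38 (11 in CCT3-2, up to 5.61). They were 4.65 in Apaf1, the apoptosome scaffold, 4.27 in Rap2b and 4.18 in Plk2, and a CCT3 peak of another name inside Ppm1d had 4.38. Like Bcl2l11, Apaf1 had only intronic CCT3 peaks, 2 in number.

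Of 25 BCL2 family genes, 6 were named in PABPC1 (24.0%), 3 in CCT3 (12.0%) and 5 in CCT3-2 (20.0%), beside 22.5%, 9.15% and 12.0% of all protein-coding genes. By listed name the PABPC1 and CCT3 shares are near that background. PABPC1 peaks lay inside 9 of the 25 by position (36.0%), beside 25.8% of all protein-coding genes. For CCT3 this count was 3 (12.0%), beside 9.59%. How near the PABPC1 share is to the background therefore depends on the rule used. Beyond the members, by listed name, PABPC1 folds were 6.74 in Bnip3l, a mitophagy receptor, 3.62 in Bcl2l14 and 3.41 in Bad, a BH3-only gene. By position, peaks of other names had 4.51 in Bcl2l12 and up to 3.69 in Bak1, both where another gene's span overlaps. The highest peak named Bik, at 4.56, lay outside the gene. The remaining CCT3 gene was Bmf, another BH3-only gene, with 1 peak in its 3′ UTR at 5.11 and 2 CCT3-2 peaks up to 5.15.

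Of 37 caspase, IAP and death receptor genes, 12 were named in PABPC1 (32.4%), 8 in CCT3 (21.6%) and 7 in CCT3-2 (18.9%), against the same background of 22.5%, 9.15% and 12.0%. The neighbouring genes Birc3 and Birc2, which encode ubiquitin ligases that restrain cell death, had 21 and 14 CCT3 peaks, and 32 and 22 CCT3-2 peaks. In Birc3 17 of the 21 were intronic and the highest log2 fold was 5.86. In Birc2 8 were exonic and 6 in the 5′ UTR, up to 5.12, with −log10 p values of 12.6 to 46.3. The CCT3 peak named Casp12, at 5.15, lay outside that gene. Among peaks named for the gene and inside it, PABPC1 folds were highest in Casp6 at 5.51, Birc6 at 5.31 and Casp2 at 5.29, in 3′ UTRs. By position they were higher in Diablo, whose product antagonises IAP proteins, with 12 peaks up to 8.69, most of them listed as B3gnt4. The spans of B3gnt4 and Mir7647 overlap Diablo, and 2 of the 12 peaks also lay in another gene's span. Vdac2, a channel gene of the outer mitochondrial membrane, held 8 up to 5.36, listed as A430057M04Rik, and Birc5, which encodes survivin, held 1 at 5.30. The PABPC1 peak named Fadd lay outside that gene.

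Peaks of both proteins lay inside 6 of the 144 genes in PABPC1 and CCT3, and inside 9 in PABPC1 and CCT3-2. Over all protein-coding genes, 3.68% held peaks of PABPC1 and CCT3, and 4.66% of PABPC1 and CCT3-2. As shares of the 144, these were 4.17% and 6.25%. The 6 were Mdm2, Birc6, Ncl, Ppm1d, Sesn1 and Trp53bp1. In Sesn1, a stress-response gene induced by p53, the PABPC1 and CCT3 peaks were 97185 bases apart, and in Birc6 the nearest were 122296 bases apart. Ppm1d, a phosphatase that dampens p53 signalling, had them 188 bases apart, closer than the 523 bases in Mdm2. In Ncl, the nucleolin gene, peaks of both proteins overlapped. No CCT3 or CCT3-2 peak there was named for Ncl, and the Ncl span also holds the genes Snora75, Gm24148 and Snord82. None of the 8 PABPC1 peaks in Ncl lay in the span of those genes, though some were listed as Snord82. The nearest pair in Trp53bp1 was 17660 bases apart. Bcl2l12, Diablo and Sirt1 held CCT3-2 peaks but no CCT3 peak. The CCT3-2 peak overlapped a PABPC1 peak in Diablo, and lay 70 bases from one in Bcl2l12 and 1604 bases in Sirt1. Spans of other genes overlap Diablo and Bcl2l12.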

How the data were processed

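Each of the 3 tables is the authors' peak list for 1 sample. The deposited log2 fold and the deposited −log10 p are the authors' own. The CCT3 header names both, and the unnamed columns of the PABPC1 and CCT3-2 tables were read as the same from their ranges. Per the submitters' processing notes, reads were handled with bcl2fastq 2.20 and the build was mm10. For the aligner, the peak caller and duplicate reads, the method was not given in the sources used here. The peak width in bases is as the authors deposited it. All PABPC1 and CCT3 peaks, and 83.7% of CCT3-2 peaks, had a log2 fold and −log10 p of at least 3.

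Members were rows whose listed gene name is 1 of the 10. Position used RefSeq gene spans of GRCm38.p6, the assembly of mm10, with a minimum of 1 base and strand ignored. Strand was given for PABPC1 and CCT3-2 peaks but not for CCT3. Sequences came from RefSeq, where 9 of 10 microRNA genes matched. Peak sequences were not used here. The members and lists were chosen with earlier results of these data known. Named genes were all 10 members and up to 4 further genes per wider list and protein with the highest fold, while the miR-34 genes, those holding peaks of both proteins and those given by position under another name were chosen after their values were seen. A further gene that this rule names is not reported here. No test was run across samples. Peak counting was tested on simulated data, where 200 of 200 genes given a peak among 21900 were counted correctly. Python 3.11.15, numpy 2.4.6, pandas 2.3.3, scipy 1.17.1 and matplotlib 3.10.9 were used.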

Additional observations from a re-analysis of the deposited data

How the results depend on the processing

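No paired analysis was possible because the values come from single peak lists and were not tested. Of 56 alternative values, 40 stayed within 1.5 times the main count or within the interval of the main share, and 16 moved. At the stricter threshold (log2 fold of 4, −log10 p of 5), where fewer peaks pass by construction, peaks named for members numbered 10 in PABPC1, 8 in CCT3 and 14 in CCT3-2. There Mdm2 kept 4 PABPC1 peaks but no CCT3 or CCT3-2 peak. Bcl2 kept 4 CCT3 peaks there, and 28, 12 and 12 genes of the wider lists were named. By RefSeq position the CCT3 count was 24 in members and 16 in Bcl2, because peaks named Mir3473f enter. In PABPC1, 11 peaks remained when the peak had to lie in the named gene, an alternative chosen after seeing the data, and also 11 on the gene's own strand, because the peaks named Bbc3 leave. With the CCT3-2 list in place of CCT3, members had 27 peaks and Bcl2 13, or 26 and 12 at a log2 fold and −log10 p of 3; the cause was not tested. Depth per library is unknown, which limits what lack of a peak can show.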
